A study of Mus musculus with 3 samples.

Results

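Sub-cluster 0 of the microglia was the largest of the 3 sub-clusters that the deposited annotation of lumbar spinal cord nuclei gave to this cell type. Its 132 nuclei were taken by that annotation, as nuclei typed microglia and numbered 0 in the microglial sub-clustering, out of 14662 nuclei in all and 223 microglia. Sub-cluster 1 held 76 nuclei and sub-cluster 2 held 15. The nuclei came from mice aged 90 days, 3 females and 3 males carrying the high-copy human mutant SOD1 transgene (B6.Cg-Tg(SOD1*G93A)1Gur/J, SOD1G93A below) and 3 females and 3 males of their C57BL/6J littermates without it (WT below). The transgene is carried by every cell of the animal and is not limited to a cell type. One mouse of each sex and genotype was marked with its own hashtag antibody and pooled into each of 3 batches, called pools A, B and C. Each hashtag marked the same sex and genotype in all pools, so that hashtag and group cannot be told apart.

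Microglia are the resident macrophages of the central nervous system. They depend on signalling through the receptor Csf1r, carry the fractalkine receptor Cx3cr1 and the leukocyte phosphatase Ptprc (CD45), and survey the tissue with P2ry12. In degenerating tissue they take up debris, raise lysosomal and complement genes and lose part of their resting programme, and in SOD1 mutant mice they are known to become reactive around disease onset. Nuclear RNA holds mostly unspliced transcripts, and single-nucleus libraries of brain and cord hold few microglial transcripts per nucleus.

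Nuclei of sub-cluster 0 were the most RNA-rich of the populations compared here. Their median was 71350.5 UMIs (unique molecular identifiers, 1 for each captured RNA molecule) and 9090.5 genes, with 3418 to 356427 UMIs per nucleus. The median was 5.55 times that of neurons (12864.5 UMIs), 7.12 times that of oligodendrocyte precursor cells (OPCs, 10016), 12.3 times that of oligodendrocytes (5786), 2.50 times that of sub-cluster 1 (28508) and 8.09 times that of sub-cluster 2 (8816). In 90 of the 132 nuclei, or 68.2%, the UMI number lay above the 95th percentile of neurons. Their hashtag margin, the gap between the highest and second highest hashtag of a nucleus, had a median of 1.88 against 0.585 in neurons. Nuclei with hashtags of several mice had been removed by the authors. Doublets within 1 mouse were not called, and their part in the results below was not tested.

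Each of the 12 mice gave 3 to 21 nuclei of sub-cluster 0. WT mice gave 79 nuclei with 8586140 UMIs and SOD1G93A mice 53 nuclei with 4015996 UMIs. The sum per mouse ran from 216161 UMIs in the SOD1G93A female of pool A, from 4 nuclei, to 2476617 in the WT male of pool A, from 18 nuclei. Of the others, 3 mice gave 5 nuclei or fewer, the WT female of pool A with 3, the WT male of pool C with 4 and the SOD1G93A male of pool C with 5. Of all nuclei, 30 carried a cell barcode that occurred in more than 1 pool, and 0 microglia shared a barcode with microglia of another pool.

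The other labels deposited with these nuclei were divided. SingleR, a program that names a cell from reference profiles, called 74 of the 132 nuclei oligodendrocytes and 51 microglia or activated microglia, which is 38.6%. In WT mice 28 of 79 nuclei and in SOD1G93A mice 23 of 53 had the microglial call. The mapping to a published spinal cord reference placed 69 nuclei with neurons, 40 with oligodendrocytes and 18 with microglia. All 15 nuclei of sub-cluster 2 were microglia by SingleR, against 2 of 76 in sub-cluster 1. The mapping, in contrast, placed all 15 nuclei of sub-cluster 2 with oligodendrocytes, and 62 of the 76 of sub-cluster 1 with neurons.

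Microglial genes led sub-cluster 0 against the nuclei outside the microglia. The highest ratios of mean CPM (the UMIs of a gene for every 1000000 UMIs of the mouse in that population) were those of Ptprc, at 12.3 times the other nuclei, the sialic acid receptor Siglech at 11.3, the lymphoid and myeloid transcription factor Ikzf1 at 10.97, the P-selectin ligand Selplg at 10.2, and Ly86, a partner of a Toll-like receptor homologue, at 10.0. Runx1, a transcription factor of blood cell development, stood at 9.13 times, Pkd1l2 at 8.62, Csf1r at 8.55, the inositol phosphatase Inpp5d at 7.66 and Unc93b1, which carries Toll-like receptors to endosomes, at 6.68. The nuclei were clustered on expression, so these ratios describe the cluster and were not tested.

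In sub-cluster 2 the same kind of gene stood much further out, with Ptprc at 102 times the other nuclei, Ly86 at 99.7 and Siglech at 97.8. Set against sub-cluster 2, sub-cluster 0 was led instead by genes outside the microglial lists, among the genes with a UMI in both. The contactin-associated protein gene Cntnap5c had a mean of 305 CPM against 3.76, Gm28928 960 against 14.3, the growth hormone receptor Ghr 223 against 3.76 and the transcription factor Ebf2 285 against 5.68. Levels this low in sub-cluster 2 rest on few UMIs, and a further 230 of the 6343 genes ranked were at 0 there and have no ratio. Against sub-cluster 1 the leading genes were Csf1r at 21.9 times, Selplg at 18.6, the inhibitory receptor Lair1 at 15.96, Ly86 at 14.7, the organic anion transporter Slco2b1 at 14.3 and Inpp5d at 10.7. The astrocyte genes Fgfr3 and Slc39a12 were also among those 10, at 9.92 and 9.66 times.

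Markers of several cell types stood side by side in sub-cluster 0. The 20 microglial markers summed to 416 ± 141 CPM (SD, n = 12 mice), the 16 neuron markers to 15517 ± 1060, the 14 oligodendrocyte markers to 6328 ± 822, the 10 OPC markers to 3449 ± 643 and the 10 astrocyte markers to 2603 ± 726. As a share of the level in the cell type that each list marks, the microglial list reached 12.1% of sub-cluster 2 (416 CPM, which became 927 without the nuclei above the median UMI number and 1058 in the nuclei that SingleR called microglia), the neuron list 65.7% of neurons, the oligodendrocyte list 37.3% of oligodendrocytes, the OPC list 30.5% of OPCs and the astrocyte list 11.9% of astrocytes. OPC markers stood at 5930 CPM in the nuclei that SingleR called microglia, and the oligodendrocyte level was 3983 CPM without the 3 of its markers that the study plotted. The OPC list was at 31.8% of OPCs in neurons, so its sum was no higher in sub-cluster 0 than in neurons. Gene by gene, however, the median was 21.2% of OPCs in sub-cluster 0 and 5.45% in neurons. Pcdh15 and Lhfpl3 were higher in neurons and the other OPC markers in sub-cluster 0, with Vcan at 106 CPM against 20.5 in neurons and Pdgfra at 16.5 against 2.05. The astrocyte list was at 13.9% of astrocytes in OPCs and 8.09% in neurons. The neuron list was at 48.9% of neurons in OPCs, 23.8% in oligodendrocytes and 21.7% in astrocytes. The oligodendrocyte list was at 31.7% of oligodendrocytes in OPCs, near its level in sub-cluster 0, at 14.4% in astrocytes and at 5.03% in neurons. Sub-cluster 1 had the neuron list at 68.2% of neurons and the oligodendrocyte list at 40.5% of oligodendrocytes, both above sub-cluster 0. The microglial list of sub-cluster 1 was at 3.07% of sub-cluster 2, close to the 2.90% measured in neurons. The label microglia was thus met in sub-cluster 0 by microglial RNA above that of neurons, at a small part of the level of sub-cluster 2. It was contradicted by neuron RNA at most of the level of neurons, although OPCs held neuron RNA at 48.9% of that level too. These nuclei are called by their number here, not microglia.

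Sub-cluster 2 differed in the other direction for neurons. Its neuron list reached 10.4% of neurons, while its oligodendrocyte list was at 90.5% of oligodendrocytes, so the purest microglial reference held oligodendrocyte RNA too. It rested on 15 nuclei of 6 mice with 168688 UMIs.

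**Figure D1:**
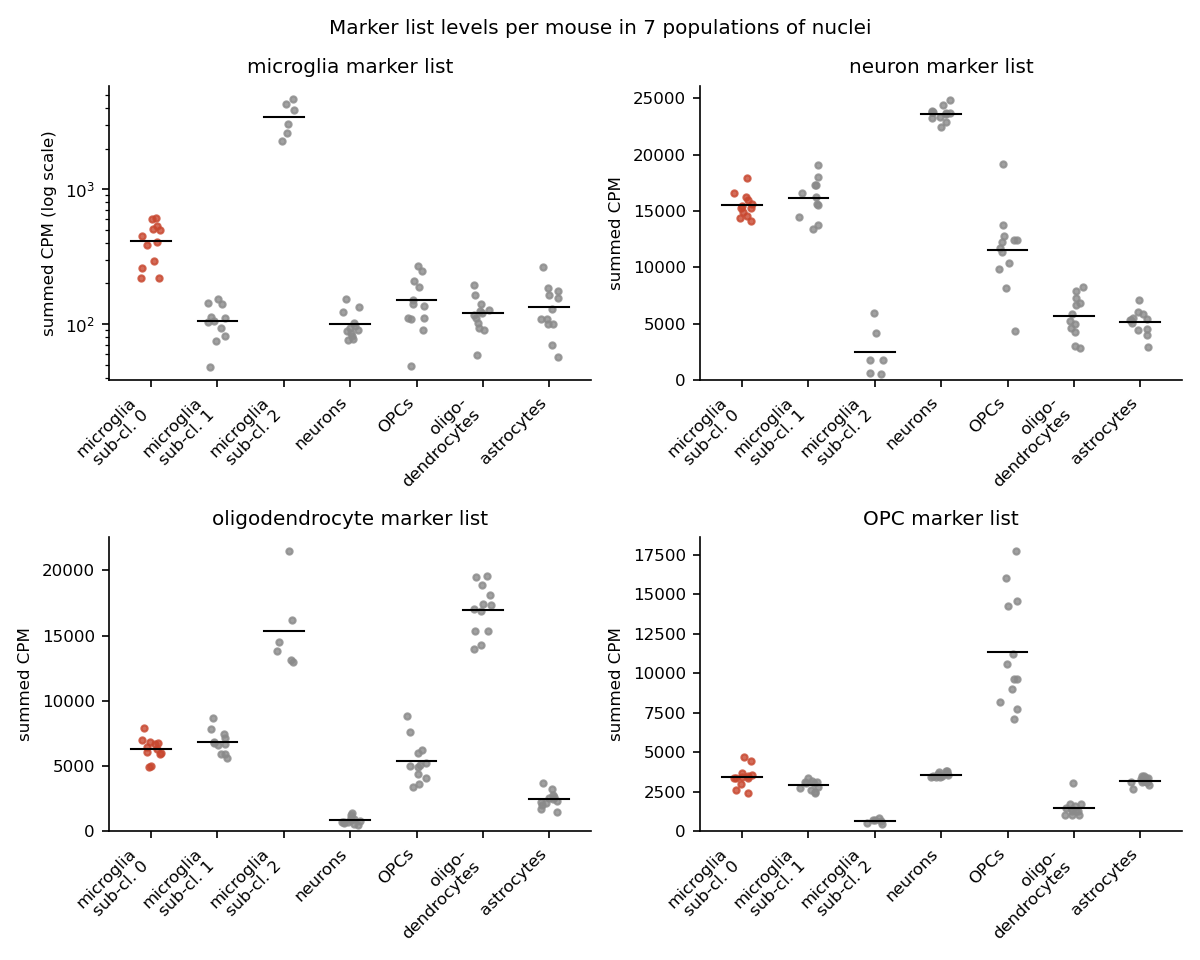
Summed CPM of 4 marker lists in each mouse (1 point per mouse) for 7 populations of nuclei, with the mean as a bar and a log axis for the microglial list only. Sub-cluster 0 (red) has 221 to 614 CPM of microglial markers, under every mouse of sub-cluster 2 and overlapping the highest mice of OPCs (269 CPM) and astrocytes (266 CPM), and lies below neurons for neuron markers, with 14122 to 17889 CPM.

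Single microglial markers followed the sum. Inpp5d stood at 58.8 ± 21.4 CPM in sub-cluster 0 (SD, n = 12 mice) against 651 in sub-cluster 2 and 4.49 in neurons, and Csf1r at 23.1 ± 9.51 against 160 and 1.94. The complement subunit gene C1qc was at 12.9 ± 5.27 CPM against 86.3 and 1.31.

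Levels of the 18 markers with a UMI in sub-cluster 2 ran, in sub-cluster 0, from 4.10% of sub-cluster 2 for Fcrls, an Fc receptor-like gene of microglia, to 50.2% for the signalling adaptor Tyrobp, with a median of 12.4%. Few transcripts lay behind some of them, with 48 UMIs of Fcrls in sub-cluster 0 and 10 in sub-cluster 2, 21 and 5 of the surface protein gene Tmem119, and 36 and 1 of Tyrobp, so that the highest value rests on a single UMI. Itgam was listed at 0 in all 7 populations, and Aif1 had 13 UMIs in sub-cluster 0 and 0 in sub-cluster 2. P2ry12 reached 51.0 CPM, near the 42.0 of neurons. P2ry12 thus did not separate these nuclei from neurons. Its gene lies within Med12l on the opposite strand, and the part of that overlap was not tested.

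Neuron genes were present across their classes. Rbfox3, which encodes the neuronal antigen NeuN, stood at 235 CPM against 354 in neurons, the synaptotagmin gene Syt1 at 1226 against 1872, and the nuclear RNA Meg3 at 5418 against 8378. Excitatory and inhibitory markers were both present in the sums over nuclei. The vesicular glutamate transporter Slc17a6 was at 59.9% of its level in neurons and the glycine transporter Slc6a5 at 68.9%. OPCs and astrocytes held both too. Slc17a6 had 43.5 CPM in sub-cluster 0, 39.1 in OPCs and 38.0 in astrocytes, and Slc6a5 had 42.6, 25.0 and 33.6. Whether single nuclei held both was not tested. Among oligodendrocyte genes, myelin basic protein (Mbp) was at 969 CPM against 2753 in oligodendrocytes and the transcription factor St18 at 1482 against 3897. OPC genes were uneven, from 13.1% of OPCs for the matrix proteoglycan Vcan and 13.4% for the growth factor receptor Pdgfra to 57.6% for Pcdh15, and Pcdh15 was nearly as high in neurons (1985 CPM) as in OPCs (2452).

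Markers of other immune and vessel cells were low. Border macrophage markers summed to 13.4 ± 17.9 CPM (SD, n = 12 mice), other leukocyte markers to 32.6 ± 30.9, endothelial and mural markers to 72.9 ± 57.2, and Schwann and meningeal markers to 16.3 ± 5.00. Neurons had 7.50, 31.3, 43.8 and 6.11 CPM for the same lists.

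The lists were also read nucleus by nucleus. The neuron list was above 50 percent of the median of neurons in 110 of the 132 nuclei, in 68 of the 76 of sub-cluster 1 and in 0 of the 15 of sub-cluster 2. UMIs of the microglial, neuron and oligodendrocyte lists occurred together in 127 of the 132 nuclei, in 59 of 76 and in 15 of 15, and a microglial UMI was also found in 5568 of 8800 neurons, so at these depths their joint presence does not set sub-cluster 0 apart. Microglial markers had a median of 382 CPM per nucleus, with 771 in the 51 nuclei that SingleR called microglia, 200 in the 81 others, 3701 in sub-cluster 2, 77.8 in sub-cluster 1 and 69.9 in neurons. Neuron markers had almost the same median in the nuclei called microglia (14889 CPM) and in the others (14935).

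A group of 5 nuclei stood apart, a description made after the values were seen. Their neuron markers summed to 1425 to 3620 CPM, while the next lowest nucleus had 7338. All 5 were microglia by SingleR, with 1205 to 4396 CPM of microglial markers, and they came from 5 mice, 3 of them SOD1G93A. Their OPC markers reached 12638 to 20493 CPM, against a median of 14581 CPM per nucleus in OPCs, and they carried 3867 to 24057 UMIs. Together they gave 2.26% of the microglial marker UMIs of sub-cluster 0.

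**Figure D2:**
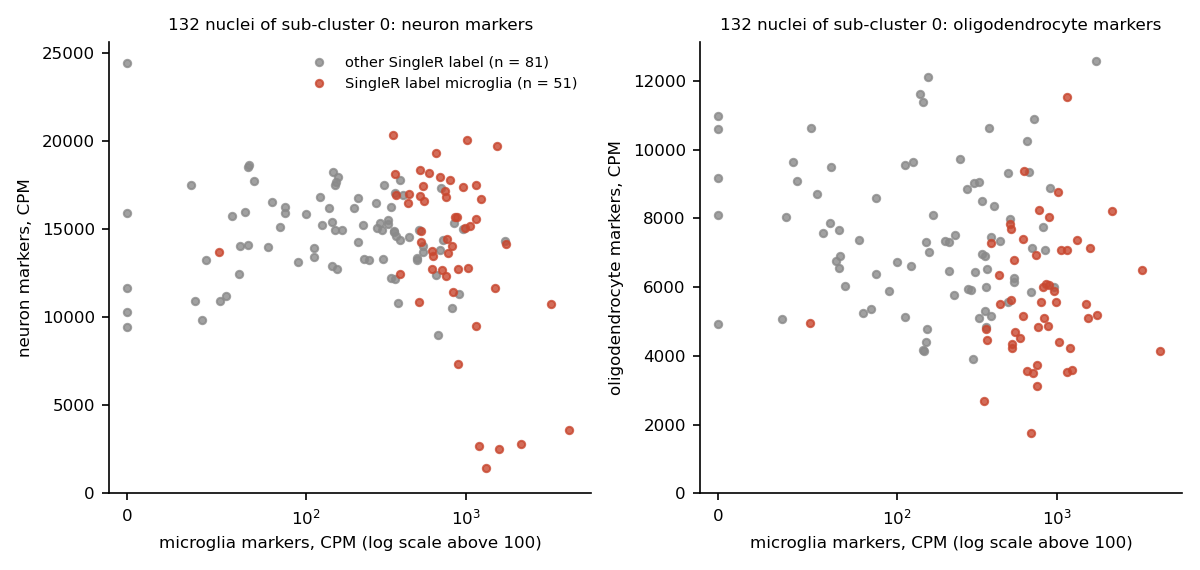
Each of the 132 nuclei of sub-cluster 0 by its microglial markers (x axis, CPM, linear below 100 and log above) against its neuron markers (left) or oligodendrocyte markers (right), both in CPM, with the 51 nuclei that SingleR called microglia in red. Nuclei of every microglial level lie at 7338 CPM of neuron markers or above, apart from 5 nuclei at 1425 to 3620.

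Within the 132 nuclei, Spearman's rho of the total UMIs was -0.18 with the microglial list and 0.31 with the neuron list, and rho of the neuron with the oligodendrocyte list was -0.36. The points share libraries and their CPM share a denominator, and nuclei of 1 mouse are not independent, so these values are descriptions.

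The share of nuclei with a UMI depends on depth, so each nucleus was thinned to 5000 UMIs and the share expected over all draws was taken. Csf1r, Cx3cr1 or Ptprc was then found in 33.7% of sub-cluster 0 (95% Wilson interval 25.8 to 41.8%, 129 nuclei, with 3 shallower ones left out), in 87.7% of sub-cluster 2 (57.8 to 95.7%, 13 nuclei) and in 6.85% of sub-cluster 1 (2.84 to 14.5%, 76 nuclei). Neurons had 5.78% (5.29 to 6.30%, 8205 nuclei). Of the 3 genes, Cx3cr1 was the highest in neurons, at 10.5 CPM against 1.94 for Csf1r and 1.80 for Ptprc. Its gene overlaps Gorasp1, Csrnp1 and Xirp1 on the same strand, and the part of that overlap in the neuron share was not tested. Within sub-cluster 0 the share was 54.2% (41.3 to 68.1%, 49 nuclei) of those SingleR called microglia and 21.2% (13.7 to 31.4%, 80 nuclei) of the others. The nuclei were clustered on expression and those of 1 mouse are not independent, so these shares are descriptions and were not tested. At 2000 UMIs the shares were 18.2% in sub-cluster 0 and 2.39% in neurons, and with at least 2 UMIs of these genes at 5000 they were 11.3% and 0.393%. Without thinning the shares were 84.8% in sub-cluster 0, at a median of 71350.5 UMIs, and 15.6% in neurons, at 12864.5. The intervals cover counting error only.

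Neuron markers (Grin1, Rbfox3 or Camk2a) were found in 88.1% of sub-cluster 0 at 5000 UMIs and in 97.0% of neurons. A marker of OPCs (Tnr, Vcan or Cspg4) occurred in 81.8% of sub-cluster 0 and 63.0% of neurons.

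The comparison of genotypes asked which genes differed in sub-cluster 0 between SOD1G93A and WT mice at 90 days. UMIs were summed per mouse and fitted with limma-voom, so that the mouse was the replicate. Of 8010 genes tested, 36 (0.449%) passed a false discovery rate (FDR) of 0.1, with 27 higher in SOD1G93A (0.337%) and 9 lower (0.112%), and 708 (8.84%) had an unadjusted p under 0.05. Of the 8010 genes, 4143 (51.7%) had a log2 fold change above 0. The higher genes held both genes that were highest in sub-cluster 2, several of them immune, and genes that were highest in neurons. The size of the calls on the log2 scale ran from 0.41 to 2.50 for higher genes (median 0.89) and had a median of -0.59 for lower ones.

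The mean of the summed microglial markers was higher in SOD1G93A mice. The 20 microglial markers, of which 19 had a UMI, summed to 336 ± 90.6 CPM in WT (SD, n = 6 mice, 221 to 448) and 496 ± 143 in SOD1G93A (n = 6, 221 to 614), with groups that overlapped. The SOD1G93A mouse was the higher in 5 of 6 pairs of 1 sex and pool, and the mice of the other pair, the males of pool C, both had 221. Neuron markers stood at 14969 ± 553 and 16064 ± 1204 CPM, oligodendrocyte markers at 6724 ± 706 and 5932 ± 782, OPC markers at 3467 ± 702 and 3432 ± 644, and astrocyte markers at 2786 ± 535 and 2420 ± 891. Of 6 pairs, the SOD1G93A mouse was higher in 5 for neuron markers, 1 for oligodendrocyte, 3 for OPC and 2 for astrocyte markers. The 9 border macrophage markers spanned 3.45 to 15.6 CPM in WT and 0 to 68.5 in SOD1G93A, and the 11 markers of other leukocytes 10.9 to 28.3 and 6.46 to 125. The SOD1G93A mouse was higher in 2 of 6 pairs for the former and 5 of 6 for the latter. In summed nuclei, more microglial RNA in the mixture and a higher level per microglial nucleus cannot be told apart.

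Sod1, the gene of the transgene, was called in the direction of the labels. Its lowest, median and highest normalised CPM were 15.8, 19.3 and 37.1 in WT mice and 63.6, 87.1 and 302 in SOD1G93A mice, and the groups did not overlap. Its log2 fold change was 2.50 ± 0.34 (SE), with an adjusted p of 0.047 in limma. Reads were counted on the mouse gene, and transcripts of the transgene and of the mouse gene cannot be told apart. In the same fit in other populations the log2 fold change was 2.11 in sub-cluster 1, 1.29 in neurons, 1.23 in oligodendrocytes and 2.31 in astrocytes, all called by limma, and 1.64 in OPCs, not called (adjusted p 0.165).

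Among the 27 higher genes, 9 had their highest mean CPM in sub-cluster 2, namely Blnk, Ctss, Lyn, Maml3, Myo1f, Parvb, Ptprc, Runx1 and Tbxas1. Of all 8010 genes tested, 2224 (27.8%) were highest there, so this count is no result about the called genes. Ctss, the lysosomal protease cathepsin S of antigen processing, had 3.71, 14.0 and 17.6 normalised CPM (lowest, median, highest) in WT and 12.1, 29.6 and 43.3 in SOD1G93A. It was higher in the SOD1G93A mouse of all 6 pairs of 1 sex and pool, with groups that overlapped at their edges, and its log2 fold change was 1.19 ± 0.22 (adjusted p 0.047, limma). Ptprc, the phosphatase that sets the threshold of immune receptor signalling, had 14.7, 20.1 and 28.5 in WT and 21.2, 38.8 and 67.1 in SOD1G93A, higher in 5 of 6 pairs, with a log2 fold change of 1.00 ± 0.23 (adjusted p 0.095). The WT mice lay in the lower part of the SOD1G93A range or under it.

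Lyn and Blnk, of the immune receptor signalling list, and the transcription factor Runx1 were also called higher. Lyn, a Src family kinase, had 37.1, 60.7 and 83.2 normalised CPM in WT and 75.7, 114 and 150 in SOD1G93A (log2 fold change 0.72, adjusted p 0.066, limma), higher in 6 of 6 pairs. Blnk, an adaptor that Src and Syk kinases phosphorylate, had 3.71, 8.20 and 15.8 in WT and 9.09, 18.4 and 32.4 in SOD1G93A (1.20, adjusted p 0.096). Runx1 had 3.71, 30.3 and 43.0 against 34.4, 53.0 and 90.2 (0.89, adjusted p 0.075). For each of these genes the 2 groups overlapped by a few mice.

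Other members of this group have roles in lipid mediators, the cytoskeleton and transcription. Tbxas1, thromboxane A synthase, had a median of 22.8 normalised CPM in WT and 39.0 in SOD1G93A (log2 fold change 0.86, adjusted p 0.066, limma), and Myo1f, a myosin of leukocytes, 17.2 and 27.7 (1.09, 0.066). Parvb, which links integrins to actin, had medians of 11.3 and 22.4 (1.18, 0.072), and Maml3, a Notch co-activator, 347 and 505 (0.57, 0.093). Parvb and Maml3 were also well expressed in neurons, with 10.3 and 388 CPM in neurons against 41.7 and 668 in sub-cluster 2, whereas Ctss had 2.91 against 211 and Ptprc 1.80 against 254.5.

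The promoters of 3 of these genes are shown, taken from the 5 in which the motif was found. They run from 250 bases before to 50 after the start, from RefSeq on GRCm38.p6, written 5′ to 3′ along the gene's strand. Capitals mark GAGGAA, a form of the core bound by ETS factors such as Spi1, or its reverse TTCCTC.
Ctss promoter, chr3:95526536-95526835, plus strand: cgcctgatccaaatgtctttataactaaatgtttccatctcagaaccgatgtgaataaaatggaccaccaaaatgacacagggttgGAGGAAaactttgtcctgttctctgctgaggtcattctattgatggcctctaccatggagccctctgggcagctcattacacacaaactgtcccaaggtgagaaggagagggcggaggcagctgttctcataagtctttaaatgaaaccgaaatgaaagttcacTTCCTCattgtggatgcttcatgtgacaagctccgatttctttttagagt
Ptprc promoter, chr1:138175256-138175555, minus strand: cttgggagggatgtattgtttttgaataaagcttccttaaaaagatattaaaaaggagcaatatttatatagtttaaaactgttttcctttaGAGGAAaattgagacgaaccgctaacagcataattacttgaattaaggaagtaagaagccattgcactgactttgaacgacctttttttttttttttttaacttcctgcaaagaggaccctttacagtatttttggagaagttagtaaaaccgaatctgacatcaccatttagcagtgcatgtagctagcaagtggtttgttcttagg
Tbxas1 promoter, chr6:38918736-38919035, plus strand: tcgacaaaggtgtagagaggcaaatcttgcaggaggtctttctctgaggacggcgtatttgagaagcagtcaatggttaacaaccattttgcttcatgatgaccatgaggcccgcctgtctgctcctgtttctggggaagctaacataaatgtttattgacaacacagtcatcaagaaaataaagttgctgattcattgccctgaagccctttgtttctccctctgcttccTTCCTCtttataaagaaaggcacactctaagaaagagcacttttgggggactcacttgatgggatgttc
The motif was found in a window of 5 of the 8 such genes that the promoter table held (Ctss, Myo1f, Ptprc, Runx1 and Tbxas1), and not in those of Blnk, Maml3 and Parvb or in the other window of Ptprc and of Runx1. It was found in 12 of 26 called genes (46.2%), and in 31.3% of all 27025 genes of the table, or 28.3% of its 32851 windows. A gene with several windows, such as Snrpn or Kcnc2, has more places for a match. No share per window was taken for the called genes, so these percentages are not a like comparison. A match describes letters and is no evidence of binding.

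Of the 27 higher genes, 10 were highest in neurons, as were 1596 (19.9%) of the 8010 genes tested. Hmga2, a chromatin protein, had 8.82, 14.0 and 19.1 normalised CPM in WT and 16.7, 42.9 and 51.1 in SOD1G93A (log2 fold change 1.41, adjusted p 0.047, limma). Ebf3, a transcription factor of neuron differentiation, had 95.3, 147 and 174 in WT and 160, 224 and 339 in SOD1G93A (0.79, 0.047). Kcnc2, which encodes the fast potassium channel Kv3.2, had 351, 466 and 602 in WT and 611, 679 and 1044 in SOD1G93A (0.64, 0.072). The groups overlapped slightly for Hmga2 and Ebf3 and not at all for Kcnc2.

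Further genes of this group included Ajap1, an adherens junction protein (medians 52.8 in WT and 83.6 in SOD1G93A, log2 fold change 0.76), Adamtsl3, a protein of the extracellular matrix (22.5 and 42.6, 1.17), and Cacna1h, the T-type calcium channel Cav3.2 (8.54 and 20.3, 1.42). Tshz2, a zinc finger homeobox gene, had medians of 493 and 652 (0.48), and Gm26883, a long RNA on the opposite strand within Tshz2, 258 and 368 (0.50). The homeobox gene Lmx1b and its co-factor Ldb2 had log2 fold changes of 1.01 and 0.50. In neurons themselves, the same fit gave 0.17 for Hmga2, 0.09 for Ebf3, 0.03 for Kcnc2, 0.18 for Ajap1 and 0.09 for Adamtsl3, none of them called by limma. Ebf3 was called in astrocytes (0.75, adjusted p 0.099) and had 0.82 in OPCs (0.502). Ajap1 had 0.55 in astrocytes and 0.43 in OPCs, and Kcnc2 0.37 and 0.47, none of them called.

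The other 8 higher genes were highest in astrocytes (4), OPCs (3) or oligodendrocytes (1). Of the 8010 genes tested, 21.8%, 7.40% and 13.2% were highest there, so these counts are no result about the called genes. Camk2d, a calcium-dependent kinase, had medians of 368 and 480 normalised CPM without overlap of the groups (log2 fold change 0.41, adjusted p 0.075, limma), and Kcnd3, the potassium channel Kv4.3, 146 and 198 (0.69, 0.058). Rpl24, a ribosomal protein gene, was the exception to the direction within pools, with higher values in 4 of 6 pairs and 2 of 3 pools (1.57, 0.095, 122 UMIs in all). Of the 27 genes, 20 were higher in 6 of 6 pairs and 26 in all 3 pools. They were called on these same mice, so this agreement is in part built in.

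**Figure D3:**
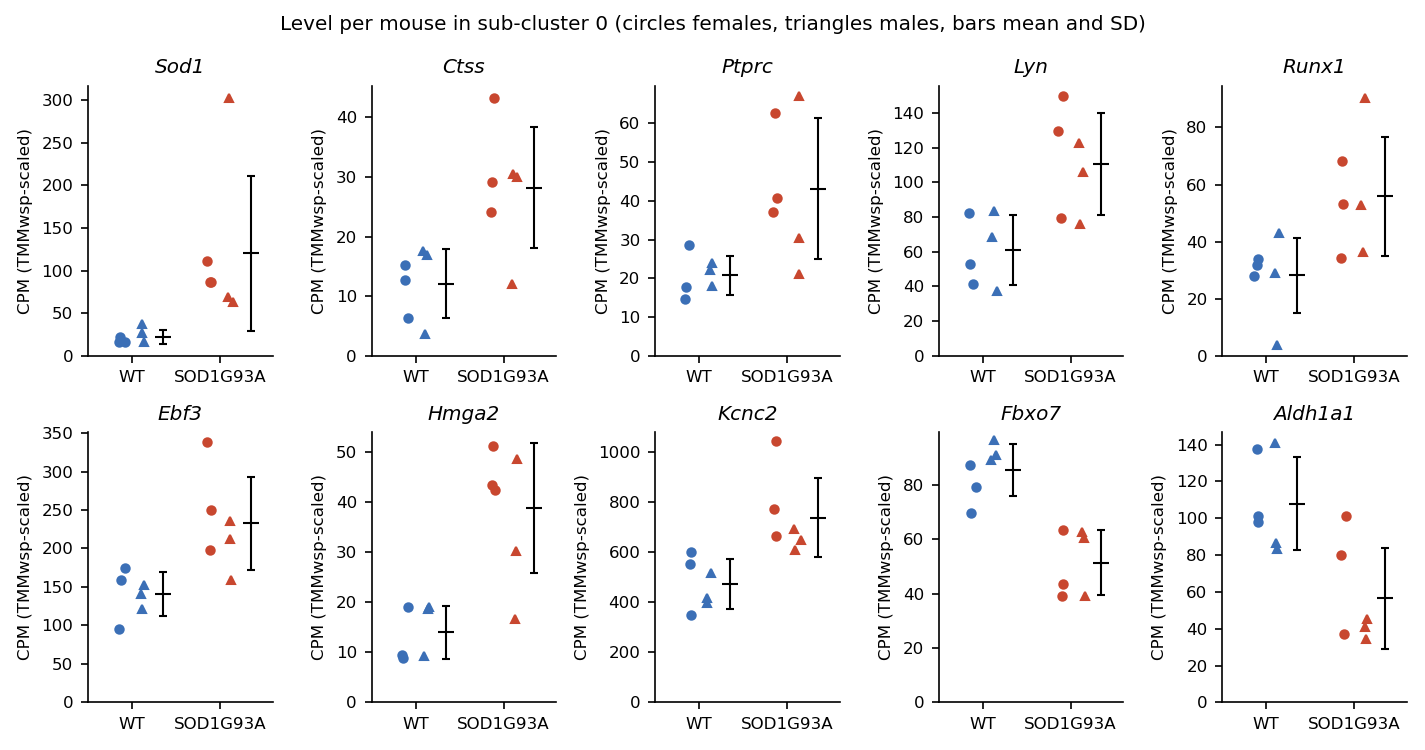
Normalised CPM of 10 called genes in sub-cluster 0 of each mouse (circles females, triangles males), WT in blue and SOD1G93A in red, with the mean and SD of 6 mice beside the points. The groups do not overlap for Sod1, Kcnc2 and Fbxo7, and a single SOD1G93A male reaches 302 CPM of Sod1.

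Of the 9 lower genes, 4 were highest in sub-cluster 2, 3 in astrocytes and 2 in neurons. Of the 8010 genes tested, 27.8%, 21.8% and 19.9% were highest there, so these counts are no result about the lower genes. Fbxo7, a subunit of a ubiquitin ligase, had 69.7, 88.3 and 96.5 normalised CPM in WT and 39.3, 52.0 and 63.5 in SOD1G93A, without overlap (log2 fold change -0.72, adjusted p 0.066, limma). Aldh1a1, which makes retinoic acid, had 83.3, 99.7 and 141 in WT and 34.7, 43.3 and 101 in SOD1G93A (-0.97, 0.066). Its mean was 986 CPM in astrocytes against 78.8 in sub-cluster 0, and the same fit gave -0.52 in astrocytes (adjusted p 0.014). Lhfp and the deubiquitinase-like Usp53, also highest in astrocytes, had -0.72 and -0.81, and limma called both in astrocytes as well, with -0.61 (adjusted p 0.079) and -0.60 (0.022).

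Pex5l and the cadherin gene Cdh19 were highest in sub-cluster 2 and oligodendrocytes. Pex5l had 1588, 2326 and 2694 normalised CPM in WT and 1429, 1565 and 1829 in SOD1G93A (-0.49, adjusted p 0.066, limma), and Cdh19 276, 399 and 452 against 196, 268 and 340 (-0.54, 0.072). Both had lower values in the SOD1G93A mouse of all 6 pairs, with groups that overlapped. The pseudokinase gene Nrbp2 had -0.53, the synaptic adhesion gene Lrrtm4 -0.40 and the imprinted gene Snrpn -0.59. All 9 genes had the same direction in all 3 pools, and 6 of them in 6 of 6 pairs, which is likewise in part built in by the calls.

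Non-overlap of the groups was found for 7 of the 36 genes, higher for Camk2d, Gm26883, Kcnc2 and Sod1 and lower for Fbxo7, Lrrtm4 and Nrbp2. Over all genes tested it was found for 30 (0.375%), 15 in each direction.

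These calls depended on the model. Without the pool as a block limma called 0 genes, with 677 at an unadjusted p under 0.05, edgeR's quasi-likelihood test called 9 and DESeq2 23 with the block, of which 8 and 21 were among the 36. With the level of the microglial identity list as a covariate limma again called 0 (495 at an unadjusted p under 0.05), as it did with the neuron, OPC and oligodendrocyte lists (545). On the log2 scale Ctss (1.19 as reported) had 1.31 without the block, 1.21 with the lists of the other cell types and 0.88 with the identity list, and Hmga2 (1.41) had 1.32, 1.42 and 1.45. An unadjusted p under 0.05 was kept by 27 of 27 and 9 of 9 genes without the block. The signs of all 36 genes stayed the same with the identity covariate. The median log2 fold change of the higher genes became 0.78 and that of the lower ones -0.58. There 24 of 27 and 8 of 9 kept an unadjusted p under 0.05 in limma. The 36 genes were selected on these same mice, so such counts are in part built in and are no independent support.

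Several mice decided the number of calls. It was 166 without the WT female of pool A (3 nuclei), 65 without the SOD1G93A male of pool C, 57 without the SOD1G93A female of pool A and 23 without that of pool C, 4 without the WT or the SOD1G93A female of pool B, 1 without the SOD1G93A male of pool A and 0 without the WT male of pool A, for which 457 genes had an unadjusted p under 0.05. The sign of each of the 36 genes was the same in every such fit that tested it, from 6 to 12 fits per gene. The genes were selected in the fit on all mice, so their stable sign is in part built in. Fits on fewer nuclei turned the sign of some, with a log2 fold change of Ebf3 of -0.02 in the nuclei SingleR called microglia and, without nuclei above the median UMI number, a log2 fold change of Gm26883 of -0.02 and a log2 fold change of Pex5l of 0.11. With only the 51 nuclei that SingleR called microglia 3 genes were called, and 3 with only the others, which share 1 and 2 genes with the 36. Fewer nuclei and genes entered those fits.

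**Figure D4:**
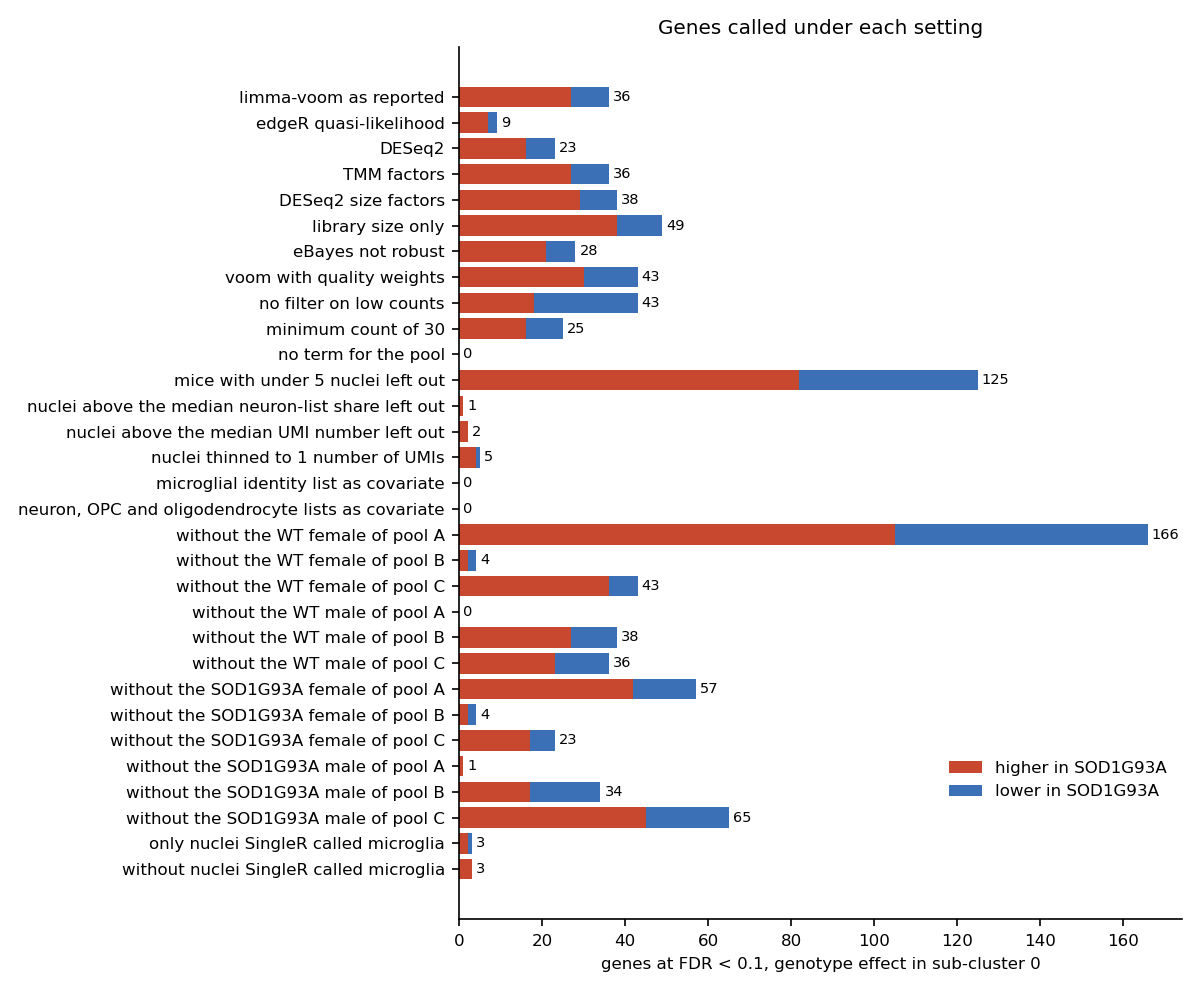
Number of genes at FDR under 0.1 for the genotype effect in sub-cluster 0 under each setting (bars, red higher and blue lower in SOD1G93A). The count runs from 0 to 166 around the 36 of the model as reported.

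**Figure D5:**
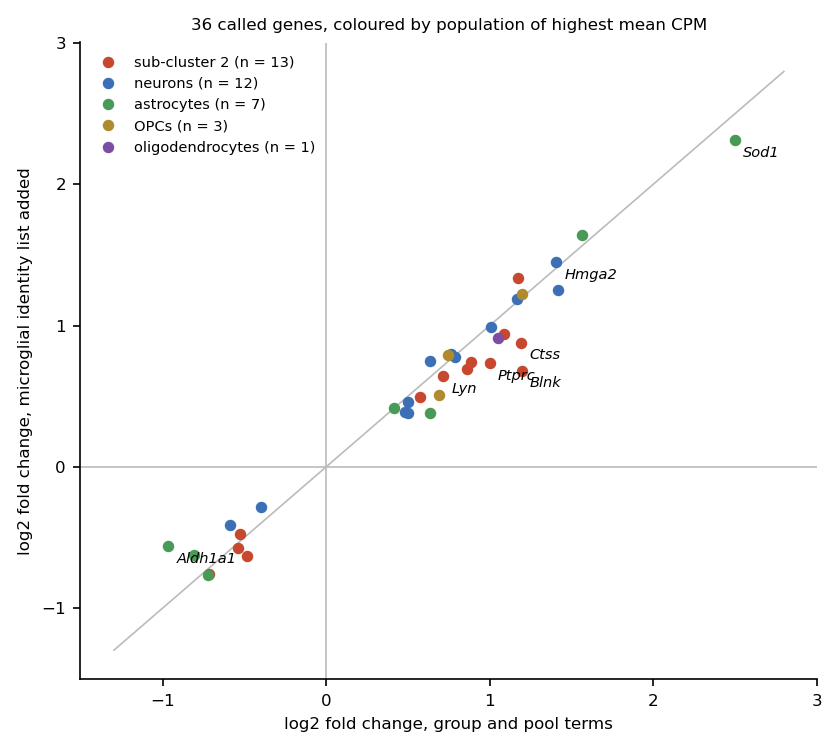
Log2 fold change (SOD1G93A over WT) of each of the 36 called genes as reported (x axis) and with the microglial identity list as a covariate (y axis), coloured by the population of highest mean CPM, with the line of equality. Ctss, Ptprc and Blnk lie under the line, at 0.88, 0.73 and 0.68 after the covariate. Ctss and Ptprc are themselves on the list that forms the covariate, which lowers their values in part by construction.

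Gene lists of microglial biology held few calls, and most members with enough counts lay above 0. Of 34 identity genes, 33 had a UMI in sub-cluster 0 and 21 passed the filter on low counts. Ptprc and Ctss were called (0.449% of all genes tested were), 19 of the 21 had a log2 fold change above 0 (51.7% of all genes), and their median was 0.52 against 0.01 over all 8010 genes. With the level of this same list as covariate the median was 0.10, a fall that is partly built in. Siglech had the lowest value, -0.40. A gene can pass the filter through the group where it is high, and the lists were chosen with earlier results of these data known.

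The complement gene C1qb had 3.17, 6.27 and 12.5 normalised CPM in WT and 3.03, 17.8 and 23.9 in SOD1G93A and was not called (log2 fold change 1.10, adjusted p 0.131, limma). Of 10 complement genes tested 0 were called by limma, with 3 at an unadjusted p under 0.05 and a median of 0.15, where 0.449% of all genes were called and 8.84% had such a p. C4b, the complement component that was called in astrocytes (1.25), neurons (1.40) and oligodendrocytes (2.30), failed the filter in sub-cluster 0 with 84 UMIs. Its values were 2.59 to 4.74 CPM in WT (33 UMIs) and 8.83 to 31.0 in SOD1G93A (51 UMIs), without overlap, and a fit with no filter gave 1.63 (adjusted p 0.083).

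Disease-associated microglial genes had 24 members, of which 7 passed the filter. None of the 7 was called by limma, 4 had an unadjusted p under 0.05 (8.84% of all genes tested did), and all 7 had values above 0 (51.7% of all genes) with a median of 0.59, or 0.46 with the identity covariate. Ctsb, cathepsin B, had medians of 29.7 in WT and 50.9 in SOD1G93A (0.69, adjusted p 0.120), the growth factor gene Igf1 9.75 and 14.2 (1.09, 0.123), and the tetraspanin Cd9 29.0 and 50.9 (0.76, 0.235). Igf1 had a mean of 17.4 CPM in neurons, 14.8 in sub-cluster 0 and 3.76 in sub-cluster 2. Astrocytes had 4032 CPM of the whole list against 454 in sub-cluster 0, and there limma called Ctsb (0.96, adjusted p 0.009) and Cd9 (0.92, 0.003), while Cd9 had 0.71 in neurons (0.141).

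Receptors and their signalling gave a like picture. Of 13 cytokine, chemokine and receptor genes tested, 0 were called by limma and 6 had an unadjusted p under 0.05 (8.84% of all genes tested did), with a median of 0.54 that became 0.04 with the identity covariate. The receptor of granulocyte colony-stimulating factor, Csf3r, came closest, with 3.71, 9.62 and 18.5 normalised CPM in WT and 14.5, 26.0 and 31.7 in SOD1G93A (1.05, adjusted p 0.102). Csf1r had medians of 19.2 and 30.2 (0.80, 0.235) and Tgfbr2, a receptor of transforming growth factor beta, 16.7 and 33.6 (0.89, 0.215). Of 8 immune receptor signalling genes tested, 3 were called, Lyn, Blnk and Ptprc, where 0.449% of all genes were, and the median was 0.66, or 0.24 with the identity covariate. The covariate list itself holds Csf1r, Cx3cr1 and Tgfbr1 of the former list and Dock2, Inpp5d and Ptprc of the latter.

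The remaining lists held 1 call or none, where 0.449% of all genes tested were called and 8.84% had an unadjusted p under 0.05. Of 13 lysosome and phagocytosis genes tested, Ctss alone was called and the median was 0.18, with Lgmn, the protease legumain, at 63.1 and 81.9 (0.46, adjusted p 0.231, limma). Of 5 myeloid transcription factors tested Runx1 was called, while Ikzf1 had 0.48 (0.500) and Mef2c 0.09 (0.922). Of 20 interferon response genes 2 were tested and 0 were called by limma, with 1 at an unadjusted p under 0.05, and Stat2 had -0.03 (0.986). No antigen presentation gene of 14 passed the filter, and of 19 immediate early genes Jund did (0.30, 0.843). Egr1, with 46 UMIs, failed it, and had 1.28 in the fit with no filter (adjusted p 0.548).

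Ntng1, a synaptic adhesion gene, had 178, 312 and 364 normalised CPM in WT and 173, 181 and 294 in SOD1G93A (log2 fold change -0.55, adjusted p 0.174, limma) and was not called. The deacetylase gene Hdac6 had medians of 12.2 and 14.2 (0.44, 0.749).

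The same fit in the other populations called 1 gene of 5660 in sub-cluster 1 (0.0177%), 4 in neurons (0.0255%), 2 in OPCs (0.0411%), 5 in oligodendrocytes (0.0475%) and 214 in astrocytes (2.29%). Ctss had a log2 fold change of 0.62 in neurons (adjusted p 0.955, limma) and 0.11 in oligodendrocytes, and Ptprc 0.92 in neurons (0.572). Other immune genes were above 0 in neurons as well, with Blnk at 0.98, Ikzf1 at 0.94, C1qc at 0.88, Csf3r at 0.74 and Runx1 at 0.67. Myo1f had 0.38 there, Tbxas1 0.25 and C1qb 0.08. In oligodendrocytes Ikzf1 had -0.78 and Runx1 -0.69. Limma called none of these genes in neurons or oligodendrocytes. Lyn had -0.04 in neurons and -0.46 in sub-cluster 1. Fbxo7 had -0.80 in sub-cluster 1 and 0.07 in neurons.

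Whether the genotype effect differed between sub-clusters 0 and 1 was tested over 11 mice, since 1 SOD1G93A female had no nucleus of sub-cluster 1. Of 6911 genes 0 (0%) were called by limma and 177 had an unadjusted p under 0.05, so a call in sub-cluster 0 alone does not show a different effect there. No other tool was run for this test.

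The sexes were compared over both genotypes. Of 8010 genes, 15 (0.187%) were called, 11 higher (0.137%) and 4 lower (0.0499%) in females, of which 7 lie on X or Y and check the labels of the mice. The 8 others were all higher in females. Nxpe4 had a log2 fold change (female over male) of 0.80 ± 0.15 (SE, adjusted p 0.027, limma), with 62.8 to 168 normalised CPM in the 6 females and 49.4 to 60.9 in the 6 males. The amino acid transporter Slc7a2 had 1.40 ± 0.26 (adjusted p 0.029) and Arhgap42, an inhibitor of RhoA, 0.90 ± 0.17 (0.029), with 42.3 to 63.4 CPM in females and 16.2 to 38.7 in males. Females and males did not overlap for Nxpe4 and Arhgap42 and overlapped for Slc7a2. Leaving out 1 mouse gave 6 calls (without the WT male of pool A), 7 (SOD1G93A female of pool B), 8 (SOD1G93A male of pool A), 25 (WT female of pool A), 26 (SOD1G93A female of pool C) or 38 (SOD1G93A male of pool C), and the 6 other fits gave 11 to 20.

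A difference of the genotype effect between the sexes was called for 1 of 8010 genes (0.0125%). Myo3b, a myosin with a kinase domain, had 0, 9.41 and 4.60 normalised CPM in WT females of pools A, B and C, 27.7, 20.7 and 63.1 in WT males, 4.83, 27.5 and 108 in SOD1G93A females and 6.11, 2.31 and 3.03 in SOD1G93A males. The genotypes did not overlap in males, where SOD1G93A mice were lower, and overlapped in females. The effect in males minus that in females was -6.21 ± 0.97 on the log2 scale (adjusted p 0.080, limma), over 221 UMIs in all, and the call was lost without the pool term. Of the fits without 1 mouse it was kept without the WT female of pool B, where 3 genes were called, and without the SOD1G93A female of pool A, and it was lost in the others.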

How the data were processed

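Nuclei of the lumbar cord of 12 mice were sequenced with 10x chemistry in 3 hashtagged pools. The authors made the deposited counts, UMIs per gene and nucleus, with Cell Ranger 3.1 on mm10, and left them without normalization. They assigned nuclei to mice with Seurat 4.0.3, removed low-quality, hashtag-negative and multi-hashtag nuclei, and the table held 0 mitochondrial genes. The deposited annotation also gave the mitochondrial percent of each nucleus (computed by the authors over its UMIs), the hashtag margin, a score from the authors' demultiplexing, and a mapping fraction of 0 to 1 that the authors took from a published reference. The table of integrated values was not used, since sums need counts.

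The count table held 31040 genes, 14662 nuclei and 206486779 UMIs. UMIs of sub-cluster 0 were summed per mouse. limma 3.58.1 was run as in the study's methods: genes filtered by filterByExpr (minimum count 10) over the 4 sex-by-genotype groups, TMMwsp factors, voom, a term per group and per pool, and eBayes, here with its robust option, with Benjamini-Hochberg adjustment over all genes and a threshold of 0.1. Genes were given coordinates from GENCODE release 21 and promoters from RefSeq (GRCm38.p6). Levels are CPM of raw sums, averaged over mice, and normalised CPM were scaled by TMMwsp. Leading genes needed 100 UMIs (20 in sub-cluster 2) and a mean of 20 CPM. Shares of nuclei are the exact mean over all draws of 5000 UMIs, in place of the single seeded draw first planned, whose value moved with the seed. Their 95% Wilson intervals use the nearest whole number of nuclei and cover counting error only. Scripts were tested on simulated data.

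The alternatives were edgeR 4.0.16, DESeq2 1.42.0, other scalings and filters, no pool term, marker lists as covariates, thinned nuclei (20000 UMIs, which 14 nuclei did not reach), nuclei or mice left out, and the SingleR split, the last chosen after seeing the data. Pools are the batches of the labels and were a block. Deviations from the group mean correlated with a median r of 0.055 in 18 pairs of mice of 1 pool, 5 of them above 0.1, and -0.028 in 36 pairs of different pools and groups.

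Genes were named by rule: those the study names for these nuclei, up to 15 called genes in each direction with the smallest adjusted p and 1 direction in all pools, the 3 members of each list with the smallest unadjusted p, the 3 leading sex genes each way outside X and Y, and the 10 leading genes of each ranking. Other genes were named after their values were seen. The members and lists were chosen with earlier results of these data known. Some genes that the rule names are not reported here.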

Additional observations from a re-analysis of the deposited data

Results flagged for a closer look

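In 128 groups of 6 mice, 1 per gene or list and genotype, 13 held a mouse far from the other 5 by Dixon's test, which is 10.2%. For independent and normally distributed values chance gives about 1 in 20. These groups share their mice and some of their genes, so 10.2% is not shown to exceed chance. In SOD1G93A mice, Sod1 had a value of 302.23 normalised CPM in the male of pool A, Tshz2 967.93 in the female of pool C and Kcnc2 1043.6 in the female of pool A. In WT mice, Kcnd3 had 89.981 in the female of pool B and Tgfbr2 11.133 in the male of pool C.

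The SOD1G93A male of pool C, with 5 nuclei, stood far below the other SOD1G93A mice by this test in 3 lists, with 220.69 CPM of microglial markers, 326.62 of myeloid transcription factors and 585.57 of lysosome genes. The SOD1G93A male of pool A was highest in immediate early genes (101.88) and border macrophage markers (68.467). The SOD1G93A female of pool A, with 4 nuclei, was highest in markers of other leukocytes (124.91). Among WT mice, the male of pool B was highest in markers of committed OPCs and newly formed oligodendrocytes (819.13) and the male of pool C in endothelial and mural markers (227.68). Myo3b differed in its genotype effect between the sexes, by -6.2062 on the log2 scale (males minus females, limma).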

How the results depend on the processing

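The count of genotype calls (36) became 9 with edgeR, 23 with DESeq2, 0 with no pool block, 125 without mice of under 5 nuclei, 1 without nuclei above the median neuron-list share, 2 without nuclei above the median UMI number, 5 in thinned nuclei, 0 with the identity list and 0 with the neuron, OPC and oligodendrocyte lists as covariate, 3 in only the nuclei SingleR called microglia and 3 in the others. Leaving out each mouse gave 0 to 166 genotype calls, 6 to 38 sex calls and 0 to 3 calls of the genotype-by-sex difference. That difference (1) became 4 with DESeq2, 3 with no filter, 0 with a minimum count of 30 and 0 with no pool block. Fewer nuclei or genes entered the fits on parts of the nuclei. For the other changes the cause was not tested. Without a filter the split of 43 genotype calls was 18 higher and 25 lower, and 16 of the 43 were among the 36. The sex count was 13 without the pool block, and the block changed no call of the difference between sub-clusters, which stayed at 0 under all alternatives run.

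The microglial list level moved to 926.64 CPM without nuclei above the median UMI number and 1058 in nuclei SingleR called microglia. Neuron markers moved to 14401 as a mean over nuclei, 12713 and 13292 in the same settings, OPC markers to 5031.5, 5930.1 and, without the 3 genes of the dot plot, 2708, and oligodendrocyte markers to 3982.7 without those genes and 7419.7 without SingleR microglia. The share of nuclei with a microglial marker became 18.209% at 2000 UMIs, 84.848% unthinned and 11.284% with at least 2 UMIs. The log2 fold change of Ebf3 turned to -0.023 in SingleR microglia, and without nuclei above the median UMI number the log2 fold change of Gm26883 turned to -0.016 and the log2 fold change of Pex5l to 0.11. Genes not called changed sign too. The log2 fold change of Stat2 was 0.21057 with DESeq2, 0.013574 with quality weights, 0.026036 with no filter, 0.086995 with the identity covariate and -0.23096 to 0.24849 without 1 mouse. The log2 fold change of Mef2c was -0.035349 without nuclei above the median UMI number, -0.0028994 in thinned nuclei, -0.072928 with the identity covariate, -0.23511 in SingleR microglia and -0.059113 to 0.21682 without 1 mouse. The log2 fold change of Ntng1 was 0.2131 without nuclei above the median UMI number and 0.067174 in SingleR microglia, the log2 fold change of Ikzf1 -0.033498 there, and the log2 fold change of Cd46 0.037459 without nuclei above the median neuron-list share. Over the named genes, 777 values kept direction and side of the threshold, 375 lost the call, 28 gained it and 21 changed sign. The 3 to 5 nuclei of some mice limit depth.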
